A study of Mus musculus with 6 samples.

Results

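The early growth response factors EGR1, EGR2 and EGR3 and their corepressors NAB1 and NAB2 are described here as 5 genes, Egr1, Egr2, Egr3, Nab1 and Nab2. They were found by symbol among the 55335 gene identifiers of the count table, and all 5 passed the filter on low counts. RNA was measured in CD8+ T cells of the P14 line, whose transgenic receptor recognizes the GP33-41 peptide, after transfer into C57BL/6 mice on day 11 after implantation of B16-GP33-41 melanoma. Donor P14 cells were sorted from the tumor (3 libraries) and from the spleen of the same tumor-bearing mice (3 libraries, the control). Every library carried the P14 TCR transgene and was labelled as 10-week-old. Tumor leukocytes passed a Percoll gradient before the sort, a step the labels do not give for spleen. Neither the number of mice nor the time from transfer to sort is stated in the sources used.

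EGR proteins are zinc finger transcription factors. Their genes are switched on soon after a T cell receptor binds antigen, through the ERK kinase path and serum response factor for Egr1 and with a strong contribution of calcineurin and NFAT for Egr2 and Egr3. NAB1 and NAB2 do not bind DNA. They dock on a repression domain shared by EGR1, EGR2 and EGR3 and recruit a chromatin remodelling complex, NuRD, and Nab2 is itself an EGR target, which closes a feedback loop. In T cells EGR2 and EGR3 are known for restraining activation and for their part in anergy.

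Egr1, Egr2, Egr3 and Nab2 were higher in P14 cells from tumor, and Nab1 was not called in either direction. Egr2 (7.07-fold, 95% interval 6.08 to 8.22) and Egr3 (6.48-fold, 5.62 to 7.46) changed most, with overlapping intervals, followed by Egr1 (4.01-fold, 3.68 to 4.38) and Nab2 (3.40-fold, 2.99 to 3.86). For Nab1 the fold was 0.972, with an interval from 0.893 to 1.06. Thus 4 of the 5 genes were called higher and 0 lower, where 34.8% of the 19783 genes tested were called higher, 35.9% lower and 70.7% in either direction (quasi-likelihood test of edgeR at an adjusted p of 0.05). The same 4 genes had no tumor library at or below a spleen library, as did 35.1% of all genes tested, and 39.4% were apart in the other direction. With so many genes called, the size says more than the call. Against a null of a 2-fold change the same 4 genes passed, as did 5.87% of all genes tested, and 9.42% passed as lower. The plot of fold changes sets these genes against all genes tested.

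**Figure D1:**
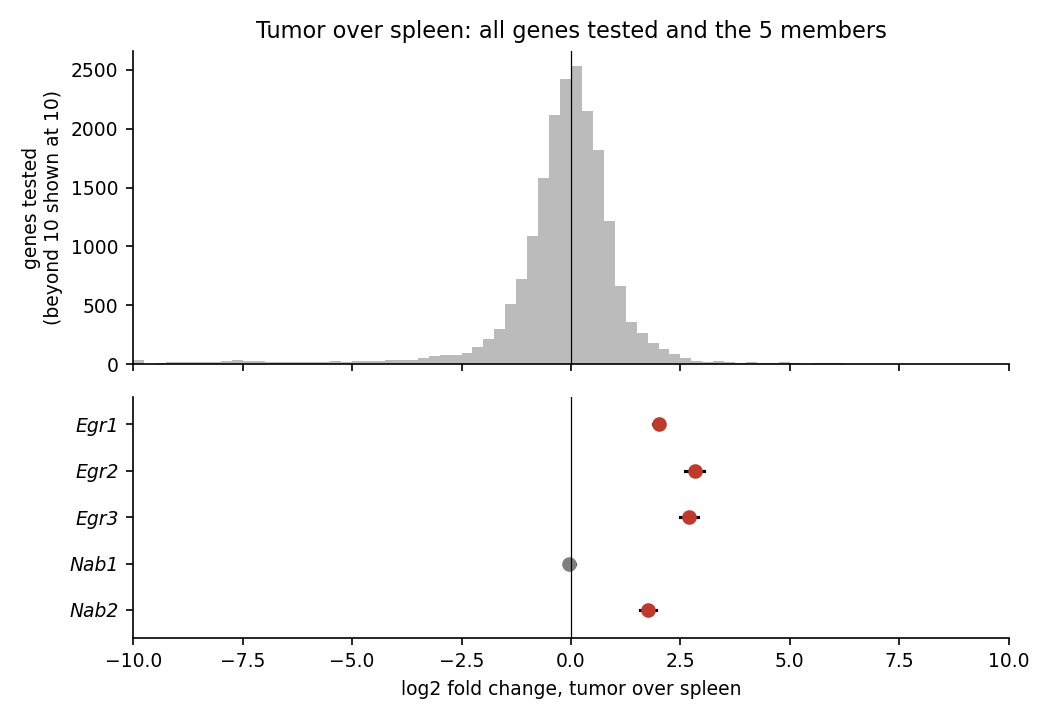
Histogram of the log2 fold change (tumor over spleen) of all 19783 genes tested, above the 5 genes of the EGR and NAB set with their 95% intervals on the same axis. Egr1, Egr2, Egr3 and Nab2 lie between 1.77 and 2.82, and Nab1 lies at -0.04, near the median of all genes (-0.02).

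Total counts ranged from 35095261 to 38263483 per library, and 3 counts, the upper limit that a count of 0 allows, were at most 0.0855 CPM (counts per 1000000 counts of the library). Such limits cover counting error only. Whether each library stands for its own mouse is not stated, and p-values cover only the spread between these libraries, which may be technical. Codes in the sample descriptions end alike within each tissue and differ between tissues, and a batch marked by them could not be told apart from tissue. Each of the 10 CD8 T cell markers had counts in both tissues, with summed levels from 4759 to 5012 CPM in tumor and from 5508 to 5586 CPM in spleen. Of the 10, 4 were called lower in tumor and 1, Cd8a, higher. Of all genes tested, 35.9% were called lower and 34.8% higher, and the counts of the marker lists below stand beside the same shares. The highest were the kinase gene Lck in tumor (805 CPM, against 1166 CPM in spleen) and Cd8b1 in spleen (1174 CPM, against 751 CPM in tumor), both called lower. Markers of B cells and myeloid cells were lower in tumor. All 12 B cell markers were called lower, with summed levels of 300.2 to 303 CPM in tumor and 2428 to 2461 CPM in spleen, and Cr2 was at 0 in tumor. The highest of them were Ighm in tumor (270.4 CPM, against 807 CPM in spleen) and Cd74 in spleen (1012 CPM, against 19.2 CPM in tumor). All 14 macrophage and monocyte markers were lower (31.6 to 32.5 CPM against 276 to 288 CPM), none of them at 0. Of 11 dendritic cell markers 10 were tested, and all 10 were lower (62.8 to 70.2 CPM against 794 to 798 CPM). Clec9a, Siglech and Cd209a were at 0 in tumor. Csf1r (11.4 CPM) and Itgax (39.4 CPM) led these lists in tumor, and Lyz2 (91.1 CPM) and H2-Ab1 (319 CPM) in spleen. Of 7 granulocyte markers 6 were tested, and all 6 were lower (0.601 to 0.829 CPM against 18.3 to 21.2 CPM), with Elane at 0 in tumor. Melanoma markers summed to 9.65 to 10.9 CPM in tumor and 19.4 to 21.4 CPM in spleen, most of it Pmel, which was lower in tumor (8.54 against 19.8 CPM). Other melanocyte genes had few counts, which were mostly in tumor except for those of Mitf. Mitf had 10, 18 and 13 counts in tumor and 18, 15 and 32 in spleen, and it did not pass. Dct, a pigment enzyme gene called higher in tumor, had 16, 18 and 17 counts there and 0, 1 and 0 in spleen. Tyrp1, another pigment enzyme gene that was not tested, had 31, 24 and 9 counts in tumor and 0 in each spleen library. Fibroblast and endothelial, NK cell, CD4 T cell and erythroid markers differed less in their sums. Of 9 fibroblast and endothelial markers only 2 were tested and 1 of them was lower, with Col3a1 and Pdgfra at 0 in tumor. Among 5 NK cell markers 2 were higher (5.67 to 7.98 CPM in tumor against 4.50 to 5.68 CPM). Among 4 CD4 T cell markers 1 was higher and 2 lower. Erythroid markers were higher for 5 of 6 and lower for 1 (247 to 274 CPM in tumor against 207 to 210.1 CPM). In bulk RNA, fewer cells of a type and less RNA per cell cannot be told apart. The part of B cell and myeloid RNA in the lower values of other genes given below was not tested.

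Egr1 encodes the founding member of the family, the usual immediate readout of ERK signalling. The gene (ENSMUSG00000038418.7) lies on the plus strand of chromosome 18 at 34859823 to 34864984 in mm10, and no other annotated gene overlaps it. Its level was 151, 146 and 153 CPM in the tumor libraries and 38.2, 39.2 and 36.9 CPM in the spleen libraries. Each tumor library was far above each spleen library, and the libraries of a tissue differed little, with means of 149.9 ± 3.93 CPM for tumor against 38.1 ± 1.13 CPM for spleen (SD, n = 3 each). The log2 fold change was 2.0 (SE 0.06, edgeR adjusted p = 1.8e-10), and 2.57% of the genes tested had a larger one.

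Egr2 encodes a factor that acts with EGR3 to limit T cell activation. The gene (ENSMUSG00000037868.15) lies on the plus strand of chromosome 10 at 67535475 to 67542188 in mm10, free of overlapping genes. It was read at 45.2, 45.0 and 44.4 CPM in tumor and at 5.55, 7.41 and 6.44 CPM in spleen. The tumor libraries were almost level, while spleen replicate 2 stood above spleen replicate 1 by a margin that is wide for these data, although far under every tumor library. Means were 44.9 ± 0.414 CPM and 6.47 ± 0.930 CPM (SD, n = 3 each), from 4979 and 708 counts. The log2 fold change was 2.82 (SE 0.10, edgeR adjusted p = 7.7e-10), which 1.16% of the genes tested exceeded.

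RefSeq promoters (GRCm38.p6, the assembly behind mm10) were matched for 3 of the 5 genes, Egr2, Nab1 and Nab2, and the 250 bases before each start were searched on both strands. Egr2 has 5 such windows. The window of its principal transcript is shown because it carries a CArG box, the element that serum response factor binds, in capitals (chr10:67537619-67537868, plus strand, in no annotated exon):
Egr2 promoter: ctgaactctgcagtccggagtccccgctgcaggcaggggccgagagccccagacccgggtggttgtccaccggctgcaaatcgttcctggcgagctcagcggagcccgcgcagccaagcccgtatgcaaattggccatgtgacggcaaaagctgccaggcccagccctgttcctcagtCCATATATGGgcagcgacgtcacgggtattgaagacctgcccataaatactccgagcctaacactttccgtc
The CArG box is present in 1.47% of all promoter windows of this length. In Egr2, 4 of the 5 windows hold such a box, 3 of them the same letters because the windows overlap. A match describes letters and shows no binding.

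Egr3 encodes the partner of EGR2 in T cells. The gene (ENSMUSG00000033730.4) lies on the plus strand of chromosome 14 at 70077203 to 70082614 in mm10, without an overlapping gene. Its level was 28.2, 27.5 and 29.1 CPM in tumor and 4.98, 4.09 and 4.27 CPM in spleen. The tissues did not overlap, with means of 28.3 ± 0.812 CPM and 4.45 ± 0.468 CPM (SD, n = 3 each). The coefficient of variation was 2.87% in tumor and 10.5% in spleen. Its log2 fold change was 2.70 (SE 0.09, edgeR adjusted p = 7.0e-10), exceeded by 1.25% of the genes tested. The intervals of Egr2 and Egr3 overlap over most of their length, and that of Egr1 lies below both. The order of Egr2 and Egr3 rests on 1 library, since without spleen replicate 1 the log2 fold changes were 2.72 for Egr2 and 2.78 for Egr3.

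Nab2 encodes the corepressor that EGR factors induce. The gene (ENSMUSG00000025402.12) lies on the minus strand of chromosome 10 at 127660918 to 127668568 in mm10. It was at 129.6, 125 and 107 CPM in tumor and at 35.8, 37.2 and 35.4 CPM in spleen. All tumor libraries were higher than all spleen libraries, but tumor replicate 3 was lower than the others of its tissue. Means were 120.3 ± 12.1 CPM and 36.1 ± 0.986 CPM (SD, n = 3 each), so the coefficient of variation was 10.0% in tumor and 2.73% in spleen. The log2 fold change was 1.77 (SE 0.08, edgeR adjusted p = 7.9e-09), and 3.43% of the genes tested had a larger one. Without tumor replicate 3 it was 1.86.

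The Nab2 count has a limit that the other 4 genes lack. Of its 2941 exon bases, 1241 (42.2%) are shared with exons on the opposite strand, 1050 of them in Gm16229, 151 in Nemp1 and 40 in Stat6. The library kit keeps strand, but whether the counting used it is not stated, and without strand the reads of overlapping genes cannot be told apart. Gm16229, a gene model, was at 56.5, 53.5 and 43.4 CPM in tumor and at 14.3, 15.6 and 14.7 CPM in spleen. Its order over the tumor libraries was that of Nab2, with the lowest value in replicate 3, and in spleen the lowest value was in replicate 1 where that of Nab2 was in replicate 3. Its log2 fold change was 1.81 (SE 0.11). Nemp1, which encodes a protein of the inner nuclear membrane, rose by less (0.99, SE 0.09), and Stat6, the transcription factor of IL-4 signalling, was higher by a small amount (0.18, SE 0.06, edgeR adjusted p = 0.025). The part of these overlaps in the Nab2 value was not tested.

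Nab1 encodes the other corepressor. The gene (ENSMUSG00000002881.14) lies on the minus strand of chromosome 1 at 52457294 to 52500679 in mm10, with no overlapping gene. Its level was 104, 108 and 117 CPM in tumor and 116, 112 and 116 CPM in spleen. The tissues overlapped, since tumor replicate 3 was above every spleen library while the other tumor libraries lay below them. Means were 109 ± 6.54 CPM and 115 ± 2.0 CPM (SD, n = 3 each), and the log2 fold change was -0.04 (SE 0.06, edgeR adjusted p = 0.53). Its 95% interval, from -0.16 to 0.08, does not reach the lower end of the Nab2 interval (1.58).

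**Figure D2:**
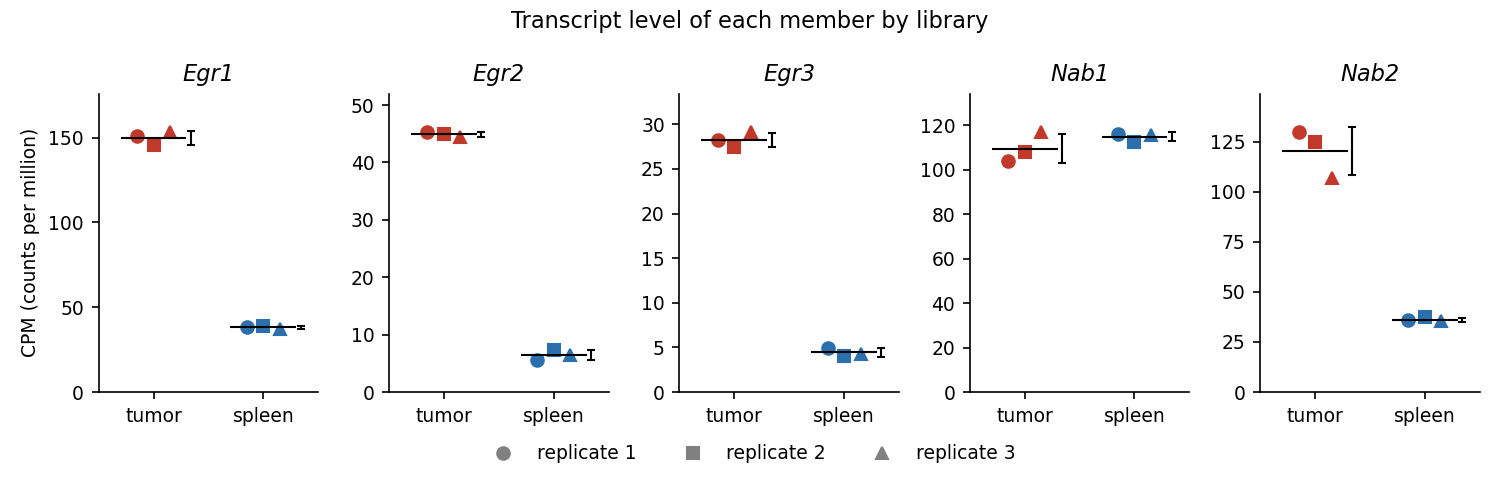
CPM of each gene by library, with red symbols for tumor, blue for spleen, the symbol shape for the replicate number, a line for the mean and a bar for the SD (n = 3 each), and every axis starting at 0. Tumor and spleen are apart for Egr1, Egr2, Egr3 and Nab2, with Nab2 from 107 to 129.6 CPM in tumor and from 35.4 to 37.2 CPM in spleen, and they overlap for Nab1.

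The promoters of the 2 corepressor genes differed in letters. The EGR consensus GCGNGGGCG (N is any base) occurred 3 times in the Nab1 window, and 4.70% of all promoter windows of this length hold it at least once. That consensus consists of G and C apart from N, and the GC content was 80.8% in the Nab1 window and 72.8% in the Nab2 window. The part of GC content in the matches was not tested. Each match is shown in capitals with 5 bases on either side, in 5′ to 3′ direction of the gene, to let the matches be compared. The first match is on the opposite strand, and all 3 lie in bases that GENCODE M21 assigns to an exon of Nab1 (chr1:52500576-52500594, chr1:52500544-52500562 and chr1:52500473-52500491, minus strand):
Nab1 match 1: gcggcCGCCCACGCcggga
Nab1 match 2: gccgcGCGTGGGCGggagc
Nab1 match 3: gcgggGCGGGGGCGgcgga
The Nab2 window held no match to this consensus, to the CArG box or to the ETS site CCGGAAG (6.91% of all windows). The stretch of that window outside annotated exons is shown beside the Nab1 matches for this reason (chr10:127666711-127666900, minus strand):
Nab2 promoter: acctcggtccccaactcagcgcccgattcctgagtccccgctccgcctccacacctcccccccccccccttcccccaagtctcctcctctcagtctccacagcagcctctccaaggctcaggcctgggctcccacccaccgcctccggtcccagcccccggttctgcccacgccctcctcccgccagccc
That window precedes the RefSeq start of Nab2, while another GENCODE transcript of the gene starts further upstream, at 127668568, where no window was searched. No match in a window says only that these letters are not there. Of the 1027 tested genes with the EGR consensus in a window, 31.9% were called higher and 39.2% lower, with a median log2 fold change of -0.07. Of all 10569 tested genes with a window, 31.4% were higher and 42.1% lower, with a median of -0.12. The median highest GC content of a gene's windows was 70.4% in the first set and 60.4% in the second. For the 143 tested genes with a CArG box, 28.0% were higher and 44.1% lower (median -0.17). These shares lay near those of all genes with a window.

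Levels of different genes were compared per kilobase of merged exons. In tumor the order was Nab2 (40.9 ± 4.11 CPM per kilobase), Egr1 (33.4 ± 0.878), Nab1 (26.7 ± 1.595), Egr2 (13.2 ± 0.122) and Egr3 (6.41 ± 0.184; SD, n = 3). In spleen it was Nab1 (28.0 ± 0.488 CPM per kilobase), Nab2 (12.3 ± 0.335), Egr1 (8.50 ± 0.251), Egr2 (1.90 ± 0.274) and Egr3 (1.01 ± 0.106; SD, n = 3). No neighbours in either order overlapped in their library values. Nab1 was therefore first in spleen and in the third place in tumor, at nearly the same level, because Nab2 and Egr1 stood above it in tumor. Among the 19760 tested genes with a length, 67.8% had a higher level than Egr2 in spleen and 29.2% in tumor. For Egr3 these shares were 77.1% and 43.1%. Bias along the transcript was not measured. The limit on the Nab2 count, from exons shared with the opposite strand, holds for its level here and for its ratios and shares below. Gm16229 was at 41.5 ± 5.58 CPM per kilobase in tumor and 12.1 ± 0.520 in spleen (SD, n = 3), near the values of Nab2. The part of shared reads in these levels was not tested.

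Ratios of 2 genes within a library do not depend on scaling between libraries, and they are given as values with no test. The ratio of Nab2 to Nab1 per kilobase was 0.80, 0.69 and 0.35 on the log2 scale in tumor and -1.22, -1.12 and -1.23 in spleen. It changed sign between tissues, so that Nab2 made up 60.4 ± 3.90% of the summed level of both corepressor genes in tumor and 30.5 ± 0.937% in spleen (SD, n = 3). Tumor replicate 3 gave the lowest tumor ratio, since Nab2 was low and Nab1 high in that library.

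Within the EGR genes the balance moved from Egr1 towards Egr2 and Egr3. The log2 ratio of Egr2 to Egr1 per kilobase was -1.34, -1.29 and -1.39 in tumor and -2.38, -2.0 and -2.12 in spleen. That of Egr3 to Egr1 was -2.40, -2.38 and -2.37 in tumor and -2.92, -3.23 and -3.09 in spleen. Neither ratio overlapped between tissues. Egr1 still made up most of the summed EGR level, 63.0 ± 0.481% in tumor and 74.5 ± 0.914% in spleen, with Egr2 at 24.9 ± 0.607% and 16.7 ± 2.0% (SD, n = 3). The ratio of Egr3 to Egr2 overlapped between tissues, from -1.09 to -0.99 in tumor and from -1.23 to -0.53 in spleen.

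The EGR genes rose by more than their corepressors did in sum. The 3 EGR genes together were at 53.1 ± 0.995 CPM per kilobase in tumor and 11.4 ± 0.388 in spleen, while Nab1 and Nab2 together were at 67.6 ± 2.52 and 40.3 ± 0.205 (SD, n = 3). The ratio of the 2 sums was 0.786 ± 0.0401 in tumor and 0.283 ± 0.0106 in spleen. For Egr2 against Nab2 alone, the log2 ratio was -1.73, -1.68 and -1.47 in tumor and -2.90, -2.54 and -2.67 in spleen, without overlap. Against Nab1 it was -0.93, -0.99 and -1.12 in tumor and -4.12, -3.65 and -3.90 in spleen. For Egr1 against Nab2 it was -0.39, -0.38 and -0.09 in tumor and -0.51, -0.54 and -0.55 in spleen, also without overlap.

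**Figure D3:**
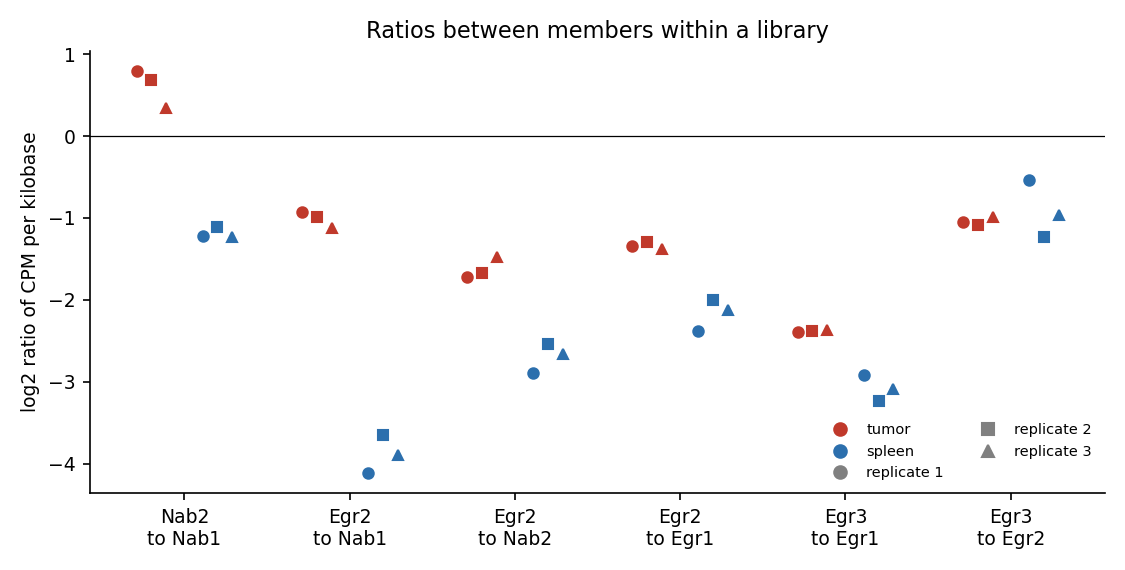
Log2 ratio of CPM per kilobase between 2 genes within each library, with red symbols for tumor, blue for spleen and the shape for the replicate number. Nab2 to Nab1 lies above 0 in the tumor libraries and below 0 in the spleen libraries, and Egr3 to Egr2 overlaps between tissues.

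Egr4, the family member that lacks the NAB docking domain, was low in tumor and at the limit of detection in spleen. It had 58, 42 and 30 counts in tumor and 0, 2 and 0 counts in spleen, which is 1.17 ± 0.386 CPM in tumor (SD, n = 3). The ratio of tumor to spleen was 64.1, with a 95% exact counting interval from 17.4 to 535, which leaves out the spread between libraries. Both spleen counts were in replicate 2. Without it Egr4 in tumor was 28.0-fold above a limit of 3 counts over the remaining spleen libraries. That value leaves out the counting error and the spread of the tumor libraries. Wt1, which encodes a zinc finger factor with a related DNA-binding domain, had 0 counts in all 6 libraries.

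The genes whose profile over the 6 libraries was nearest to each gene were found by the root mean square difference of centred log2 CPM. They were sought among 8201 genes with a mean of at least 10 CPM. Gene models without a proper name, pseudogenes and receptor or immunoglobulin segments were left out. Gm16229, which shares exon bases with Nab2, was therefore not compared. With 2 tissues, nearness mainly reflects an equal fold change. Nearest to Egr1 were Slc7a1, a transporter of cationic amino acids (0.050), Pla2g12a (0.055) and Litaf (0.060). Nearest to Egr2 were the muscle-type enolase gene Eno3 (0.14), Shmt1, a serine hydroxymethyltransferase (0.15), and Crtam, an adhesion receptor of activated CD8 T cells (0.15). Nearest to Egr3 were Hilpda, a hypoxia-induced lipid droplet gene (0.072), Crtam (0.085) and Bend4 (0.085). For Nab2 these were the membrane protease gene St14 (0.031), Epop (0.041) and the T cell adaptor gene Sh2d2a (0.057). For Nab1 they were the pantothenate kinase gene Pank2 (0.021), Exoc6 (0.024) and Atp6v0e (0.025). Of the other members, Egr3 was the nearest to Egr2 (0.22), with 13 genes nearer, and Nab2 the nearest to Egr1 (0.16), with 68 genes nearer.

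Of 27 other genes listed as immediate early, 16 were higher in tumor and 6 lower (median log2 fold change 0.36). Of all genes tested, 34.8% were called higher and 35.9% lower, with a median of -0.02. Nr4a2 (6.24), Nr4a1 (4.65) and Nr4a3 (5.84), nuclear receptors induced by antigen, changed more than the EGR genes, and Fos, an AP-1 subunit, changed about as much as Egr1 (2.10, SE 0.07). The direction was not shared by the whole list. The mRNA decay factor gene Zfp36 (-0.83) and the antiproliferative genes Btg2 (-0.76) and Btg1 (-0.80) were lower, and Junb, an AP-1 subunit, did not pass (-0.06, edgeR adjusted p = 0.41). Heat shock genes, which tissue dissociation and stress can induce, were higher for 12 of 12 (median 1.66), and those with the smallest p were Hspa1a (6.19), Hspa1b (6.03) and the chaperone gene Hsph1 (1.66). Hspa1a and Hspa1b are near-identical copies whose separate values are uncertain. Dissociation can induce Egr1 as well, and its part in the EGR and NAB values was not tested.

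Genes of the path from receptor to ERK and serum response factor did not move together. Of 21, 5 were higher, 7 lower and 9 did not pass, with a median log2 fold change of -0.02. Over all genes tested the shares were 34.8% higher and 35.9% lower. Hras (0.46), the MEK1 gene Map2k1 (0.36) and the ETS factor gene Elk3 (0.29) were higher by small amounts. Mrtfa, a coactivator of serum response factor (-1.29), Rasgrp1, the main Ras activator below the T cell receptor (-0.92), and Sos1, another Ras activator (-0.82), were lower. B cell and macrophage markers were lower in the same libraries, and their part in these 3 values was not tested. Srf itself did not pass, with a mean of 92.8 ± 14.3 CPM in tumor against 85.7 ± 3.78 CPM in spleen (SD; log2 fold change 0.15, edgeR adjusted p = 0.22). Without tumor replicate 2 or without spleen replicate 1, 3 genes were higher in place of 5, as Mapk3 (0.27) and Elk1 (0.28) lost their calls (edgeR adjusted p from 0.055 to 0.11).

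Of the 11 genes on the calcineurin and NFAT list, 6 were lower and 3 higher (median log2 fold change -0.32). Among all genes tested, 35.9% were lower and 34.8% higher (median -0.02). The calcium channel gene Orai1 (1.32), Nfatc1 (0.58), itself induced by NFAT, and the calcineurin inhibitor gene Rcan1 (0.36) were higher. Nfatc3 (-0.93), the calcineurin subunit gene Ppp3ca (-1.10) and the calcium sensor gene Stim1 (-0.94) were lower. B cell markers were lower in the same libraries, at 300.2 to 303 CPM against 2428 to 2461 CPM, and their part in these values was not tested.

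Genes that earlier work ties to EGR2, EGR3 or NAB proteins in T cells were higher in tumor for 12 of 25 and lower for 8. The shares over all genes tested were 34.8% higher and 35.9% lower. The median log2 fold change of the list was 0.31, with values far apart. The costimulatory receptor gene Tnfrsf9 averaged 879 ± 13.2 CPM in tumor against 14.9 ± 0.591 CPM in spleen (log2 fold change 5.91, SE 0.06). The inhibitory receptor gene Lag3 (3.39, SE 0.07) and Nrgn, which encodes a calmodulin-binding protein (3.54, SE 0.08), were higher as well. Other genes of this list moved the opposite way. Dtx1, a ubiquitin ligase gene linked to anergy, averaged 26.7 ± 4.23 CPM in tumor against 372 ± 9.62 CPM in spleen (-3.77, SE 0.11), and the diacylglycerol kinase gene Dgka (-1.21) and Socs3, an inhibitor of cytokine signalling (-1.64), were lower. Levels of B cell and macrophage markers were lower in the same libraries, and their part in these falls was not tested.

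Genes of the NuRD complex, through which NAB proteins repress, changed little in size. Of 13, 9 were higher and 4 lower, beside 34.8% and 35.9% of all genes tested, and the median log2 fold change was 0.38. Among the higher genes were the histone-binding subunit gene Rbbp7 (0.74), Mbd3 (0.59) and Gatad2a (0.49), and Chd4, the remodeller that NAB2 binds, was at 0.38 (edgeR adjusted p = 1.0e-04). Chd3, an alternative remodeller, was lower (-0.95), as were Mta3 (-0.31) and Mbd2 (-0.24), and the remaining lower gene was Mta2 (-0.19). Mbd2 and Mta2 both lost their calls without spleen replicate 1, 2 or 3, which left 2 genes lower (edgeR adjusted p from 0.059 to 0.11).

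**Figure D4:**
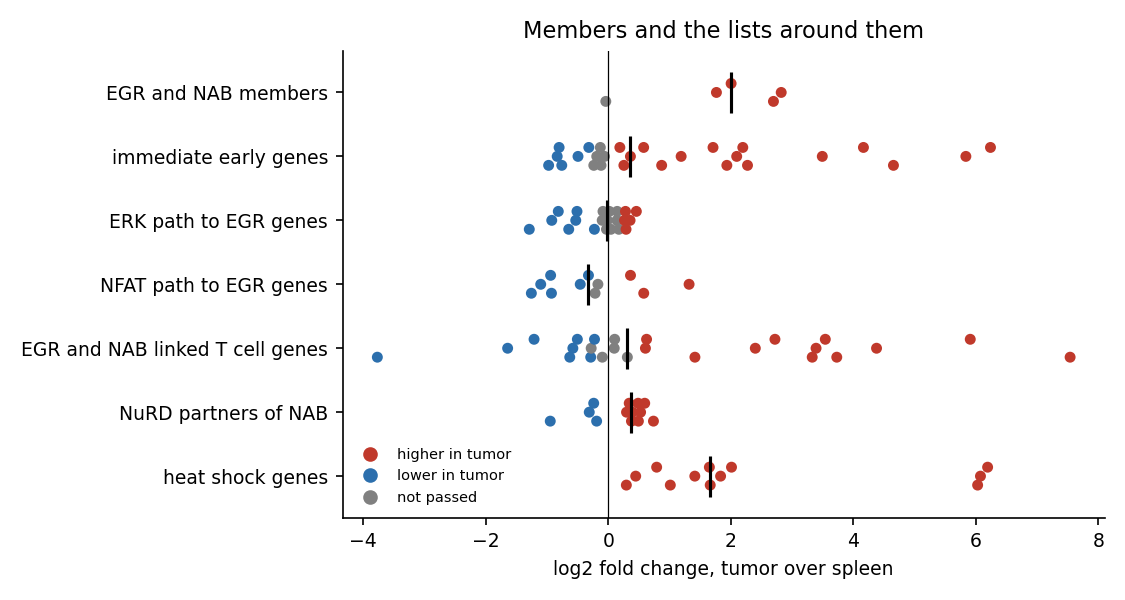
Log2 fold change (tumor over spleen) of each gene in the EGR and NAB set and in the lists around it, with red for genes called higher in tumor, blue for lower, grey for not passed and a black line for the median. The ERK path list is centred near 0 (median -0.02), the NFAT path list lies mostly below it (-0.32), and all 12 heat shock genes lie above it.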

How the data were processed

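The authors deposited raw counts, whole numbers for each gene in each library, made with bcl2fastq 2.20.0.422, STAR 2.3 and featureCounts on mm10, per the submitters' processing notes. The sources used do not state the annotation release or the strand setting. Symbols, coordinates and exon lengths came from GENCODE M21. A symbol was found for 55154 of 55335 identifiers, and 54587 matched that release with their version. Columns were tied to samples by the code in each sample's description, and samples to tissue by title.

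Genes were kept by filterByExpr (minimum count 10, minimum total 15) and tested in R 4.3.3 by the quasi-likelihood F-test of edgeR 4.0.16, with TMM scaling and tissue as the only factor over all 6 libraries. Benjamini-Hochberg adjustment ran over all 19783 genes, and genes under 0.05 were called. Each fold change sets tumor against spleen, its SE follows from F, and intervals are 95%. Pairs of spleen libraries differed with a chi-square of 2.18 to 3.48 per degree of freedom and pairs of tumor libraries with 8.92 to 32.5, so none was a copy of another. Tumor and spleen libraries with equal numbers had correlations of their deviations of -0.00079, 0.016 and 0.0024, under the 0.1 asked for pairing. The fit was tested on simulated data, and the recovery asked for was required only of genes of at least 1 CPM, a limit set after a first run over all genes fell short of it.

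Alternatives were other scalings and filters, DESeq2 1.42.0, limma-voom (limma 3.58.1), a null of a 2-fold change, a replicate block and leaving out each library. The members and lists were chosen with earlier results of these data known. Named genes are the members, their relatives, the 3 genes with the smallest p in each direction of each list, the highest marker in each tissue (given for the lists of CD8 T cells, B cells, macrophages and dendritic cells) and the 3 nearest profiles. Fos, Junb, Srf, Mapk3, Elk1, Chd4, Mta2, Cd8a, Dct, Mitf, the markers at 0 and the genes that overlap Nab2 were named after their values were seen. The ratios of Egr3 to Egr2, of Egr1 to Nab2 and of the summed levels were also chosen after their values were seen.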

Additional observations from a re-analysis of the deposited data

How the results depend on the processing

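The calls of Egr1, Egr2, Egr3 and Nab2 kept their side of the threshold and their direction in all 15 alternative fits, with log2 fold changes from 1.95 to 2.03, 2.72 to 2.93, 2.64 to 2.78 and 1.71 to 1.86. Nab1 passed in none (-0.09 to -0.0013, adjusted p 0.16 to 1.0). In the fit with a replicate block the values were 2.0, 2.83, 2.70, -0.04 and 1.76 for Egr1, Egr2, Egr3, Nab1 and Nab2, and the block changed no call among these genes. Against a null of a 2-fold change fewer list genes passed. The ERK list had 0 higher and 1 lower, the NFAT list 1 and 1, and the NuRD list 0 and 0. Immediate early genes had 11 higher and 0 lower, EGR and NAB linked genes 10 and 3, and heat shock genes 8 and 0. Of all genes tested, 5.87% passed as higher and 9.42% as lower. When 1 library was left out, 3 to 7 ERK list genes were higher and 2 to 4 NuRD genes lower. With the longest transcript as the length, Egr2 was at 15.1 CPM per kilobase in tumor and 2.18 in spleen, Egr3 at 7.17 and 1.13, Nab1 at 29.6 in spleen, and Nab2 at 46.6 and 13.99. With TMM-scaled library sizes Egr2 was at 13.3 in tumor. Of the 319 alternative values computed, 298 stayed within their limits and 21 moved. Depth limits Egr4, with 2 counts over the spleen libraries, and for Wt1 a count of 0 allows up to 0.0855 CPM in a library.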
